A study of Mus musculus with 10 samples.

Results

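The Schlafen family was followed through 10 whole B16 melanoma tumors, 5 wild type and 5 labelled Bach2-deficient, all on the C57BL/6 background. B16 is a transplantable melanoma line of C57BL/6 origin, and Bach2 encodes a transcriptional repressor of lymphocytes. The family was chosen by its difference between these genotypes in earlier results of the same arrays, and its members are all probe sets (groups of short array probes read as 1 value) annotated to exactly 1 of the symbols Slfn1, Slfn2, Slfn3, Slfn4, Slfn5, Slfn8 and Slfn9. That gave 11 probe sets of 45037 without controls, and 7 of 18193 measured genes. Because the genotype contrast chose the family, its changes are given here as a description with no p-value, and counts of members past the threshold of the fit stand only beside the share of all probe sets past it. All groups carry the same tumor line and background strain. The labels do not state the part of Bach2 that was deleted, the cells that lacked it, or the age of the animals.

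Schlafen proteins are found in mammals as a cluster of related genes and are known as a family that lymphocytes and myeloid cells express and that interferons induce. In the mouse they fall into a short group (Slfn1 and Slfn2), an intermediate group (Slfn3 and Slfn4) and a long group with an added helicase-like part (Slfn5, Slfn8 and Slfn9). Several members bind or cut tRNA, hold T cells and monocytes in a resting state, or restrict viruses. In a tumor, their RNA can come from the infiltrating immune cells or from the melanoma cells themselves.

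Values are log2 expression from robust multi-array averaging, so a difference of 1 is a doubling, and probe sets of different genes cannot be ranked by level because their affinities differ. Bach2 itself overlapped between the groups in each of its probe sets. Probe set 1436515_at ran from 4.97 to 6.22 in wild type and from 3.87 to 5.22 in Bach2-deficient tumors, 1445460_at from 5.93 to 7.78 and from 4.96 to 6.37, and 1437667_a_at from 5.26 to 6.49 and from 4.81 to 5.86. A probe set outside the deleted part checks nothing. The poly-A spike controls, added before labelling, averaged 11.9 to 12.4 on wild-type and 9.93 to 10.2 on Bach2-deficient arrays. Xist, the transcript of the inactive X chromosome, was between 11.4 and 12.2 on the wild-type arrays and at 11.9 on Bach2-deficient replicate 2, but between 4.76 and 6.61 on the other Bach2-deficient arrays. These differences cannot be told apart from genotype where they follow it. The labels do not tie each tumor to an animal of its own, so spreads and p-values describe these samples and may be partly technical.

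Most of the family was higher in the Bach2-deficient tumors. With limma (adjusted p under 0.05 over all probe sets), 7 of the 11 probe sets were called higher, against 11.9% of all probe sets, and 0 were called lower, against 8.87%. The same number, 7, had no overlap between the groups and were higher, against 8.65% of all probe sets. These sets belong to 5 genes, Slfn1, Slfn2, Slfn4, Slfn5 and Slfn8. The remaining 4 sets (1 of Slfn1, the single set of Slfn3 and both of Slfn9) overlapped between the groups. The median change over the 11 sets was 1.80 (log2, Bach2-deficient minus wild type), beside -0.07 over all probe sets. Since the contrast chose the family, nothing is read from these shares.

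**Figure D1:**
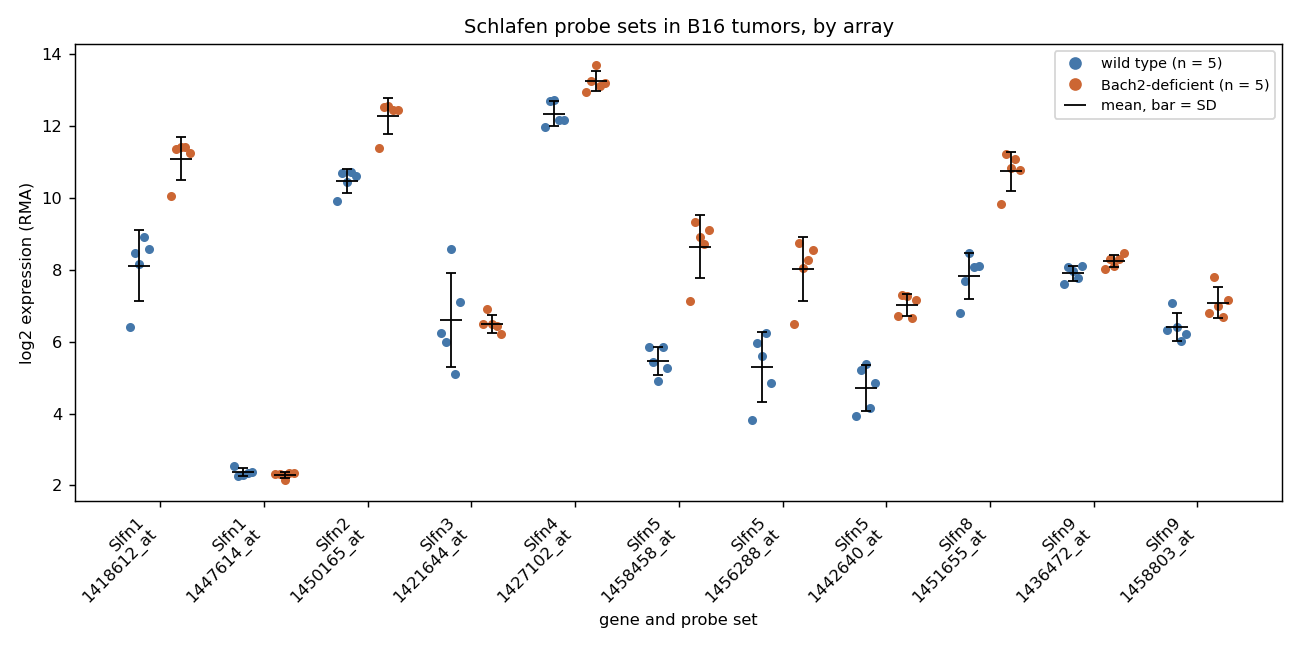
Log2 expression (RMA, vertical axis) of the 11 Schlafen probe sets (horizontal axis) on each of the 5 wild-type (blue) and 5 Bach2-deficient (orange) arrays, with the group mean and SD in black. The Bach2-deficient points of Slfn2, Slfn4, Slfn5 and Slfn8 and of Slfn1 1418612_at lie above all wild-type points, while those of Slfn3, Slfn9 and Slfn1 1447614_at overlap them.

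The short members differed by several fold. Slfn1, the founding member, which restrains growth when overexpressed in thymocytes, was read by 1418612_at at 6.42, 8.48, 8.16, 8.93 and 8.59 in wild-type replicates 1 to 5. The same probe set read 10.06, 11.36, 11.42, 11.41 and 11.25 in Bach2-deficient replicates 1 to 5. Replicate 1 was the lowest of both groups, and the groups were still separated by 1.13. The difference was 2.98 (SE 0.46), or 7.91-fold. A second Slfn1 probe set, 1447614_at, stayed between 2.14 and 2.54 on all arrays. That lies under 4.55, the mean level that bounds the dimmest 30% of probe sets, and the gene was read from the brighter set.

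Slfn2, without which T cells and monocytes fail to stay quiescent, was higher on every Bach2-deficient array. Its probe set 1450165_at read 9.92, 10.70, 10.45, 10.71 and 10.62 in wild type. In the Bach2-deficient tumors it read 11.38, 12.53, 12.57, 12.45 and 12.46. All but replicate 1 of the latter lay within a narrow band from 12.45 to 12.57. The groups did not overlap, with a difference of 1.80 (SE 0.25), or 3.48-fold.

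The intermediate members parted from each other. Slfn4, a gene of monocytes, macrophages and suppressive myeloid cells, was bright in both groups. Probe set 1427102_at read 11.96, 12.70, 12.74, 12.16 and 12.18 in wild type and 12.96, 13.25, 13.71, 13.12 and 13.21 in Bach2-deficient tumors. The groups were separated by 0.22, and the difference of 0.90 (SE 0.19) was 1.87-fold.

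Slfn3, studied in intestinal epithelium and T cells, had no common shift. Its probe set 1421644_at read 6.25, 5.98, 8.58, 5.10 and 7.10 in wild type and 6.48, 6.90, 6.48, 6.43 and 6.21 in Bach2-deficient tumors. The whole Bach2-deficient range lay inside the wild-type range, whose SD was 1.32 against 0.25. The difference of means was -0.10 (SE 0.53). One further probe set, 1450322_s_at, is annotated to both Slfn3 and Slfn4 and is not a member, and its signal cannot be assigned to either gene. It ran from 6.43 to 7.36 in wild type and from 7.98 to 10.07 in Bach2-deficient tumors, with the highest value in replicate 3, the array on which Slfn4 was also highest.

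Of the long members, Slfn5 was read by 3 probe sets, which differed by unequal sizes. Slfn5 is interferon-inducible, also in melanoma cells, and its human counterpart restrains interferon-driven transcription. Its brightest probe set, 1458458_at, read 5.84, 5.44, 4.92, 5.86 and 5.27 in wild type and 7.14, 9.33, 8.90, 8.73 and 9.12 in Bach2-deficient tumors. The difference was 3.18 (SE 0.38), or 9.07-fold, with a gap of 1.28 between the groups. Replicate 1 was again the lowest of the Bach2-deficient arrays.

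The other Slfn5 probe sets gave the same direction with smaller differences. Probe set 1456288_at read 3.83, 5.97, 5.60, 6.25 and 4.86 against 6.48, 8.75, 8.07, 8.27 and 8.56, a difference of 2.72 (SE 0.53). Here the groups came within 0.23 of each other. Probe set 1442640_at read 3.93, 5.21, 5.38, 4.16 and 4.86 against 6.72, 7.30, 7.28, 6.67 and 7.16, a difference of 2.32 (SE 0.29). Some of these wild-type readings lie under 4.55, in the dimmest 30%, so the size of these differences is less certain.

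Slfn8 and Slfn9 are close relatives of the long group, akin to human nucleases that cut tRNA. Slfn8, read by 1451655_at, was at 6.81, 7.70, 8.46, 8.08 and 8.12 in wild type and at 9.82, 11.22, 10.83, 11.08 and 10.78 in Bach2-deficient tumors. The gap of 1.36 between the groups was the widest among the 11 probe sets. The difference was 2.91 (SE 0.34), or 7.53-fold.

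Slfn9 differed far less than Slfn8. Its probe set 1436472_at read 7.59, 8.08, 7.96, 7.77 and 8.10 in wild type and 8.03, 8.29, 8.12, 8.29 and 8.46 in Bach2-deficient tumors. The difference of 0.34 (SE 0.13) came with overlapping groups. The second probe set, 1458803_at, read 6.33, 7.08, 6.40, 6.03 and 6.22 against 6.81, 7.80, 6.99, 6.69 and 7.17, a difference of 0.68 (SE 0.24) with overlap. Neither was called. Members of this family are alike in sequence, and how far probes of one hybridise to another was not tested.

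Only Bach2-deficient replicate 2 separates Xist status from genotype, so the part of Xist status in the Schlafen differences cannot be told apart from genotype on the other arrays. That array was the highest Bach2-deficient one for all 3 Slfn5 sets, Slfn8, Slfn3 and Slfn9 1458803_at, the last at 7.80 against 6.69 to 7.17 on the arrays with low Xist. When Xist status was added to the fit, the genotype difference became that of Bach2-deficient replicate 2 minus the wild-type mean. The other Bach2-deficient arrays add nothing to its size, so only sizes are given for this fit and no calls are read. The median change of the 11 sets was then 2.05. Slfn1 1418612_at stood at 3.24, Slfn4 at 0.90 and Slfn5 1456288_at at 3.45. Slfn9 1458803_at went from 0.68 to 1.38.

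Promoter sequences were set beside these changes, to show what the members share that the genotype contrast did not use. RefSeq promoter windows (build GRCm38.p6, 250 bases before to 50 after an annotated start) were matched for all 7 genes, giving 8 windows because Slfn8 has a pair of starts, whose windows overlap and hold the same match. Letters of 3 motifs were searched on both strands. They were GAAANNGAAA, the core of the interferon-stimulated response element that interferon-activated factors bind, TTCNNNGAA, the site of STAT dimers, and TGANTCA, the AP-1 site, whose letters also lie within the element that BACH factors bind. The first was present in 4 of 8 windows, those of Slfn5, Slfn8 and Slfn9, and in 3.45% of 32544 different windows of the table. TTCNNNGAA was in 0 of 8 windows and in 8.33% of all. TGANTCA was in 1 window, that of Slfn4, and in 7.79% of all. The motifs found do not overlap one another. A match is only a match of letters, and a window without one says nothing of the factor.

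Windows with a match are printed 5′ to 3′ on the strand of the gene, with the matched letters in capitals. Those of Slfn8 and Slfn9 are shown because they are alike while their RNA differed unequally, that of Slfn5 because all 3 of its probe sets separated the groups, and that of Slfn4 for its AP-1 letters.
Slfn8 (chr11:83020761-83021060, minus strand): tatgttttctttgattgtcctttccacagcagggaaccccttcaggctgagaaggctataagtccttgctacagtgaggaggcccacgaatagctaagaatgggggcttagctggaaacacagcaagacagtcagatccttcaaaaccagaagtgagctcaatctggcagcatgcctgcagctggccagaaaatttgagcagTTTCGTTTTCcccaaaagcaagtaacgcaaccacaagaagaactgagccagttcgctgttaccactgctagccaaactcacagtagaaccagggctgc
Slfn9 (chr11:82991781-82992080, minus strand): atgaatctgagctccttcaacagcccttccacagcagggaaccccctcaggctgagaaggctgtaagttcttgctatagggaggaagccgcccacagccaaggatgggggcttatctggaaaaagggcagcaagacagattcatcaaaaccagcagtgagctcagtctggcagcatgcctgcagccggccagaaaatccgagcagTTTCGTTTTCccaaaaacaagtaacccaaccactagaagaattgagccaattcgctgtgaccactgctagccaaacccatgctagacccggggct
Slfn5 (chr11:82951852-82952151, plus strand): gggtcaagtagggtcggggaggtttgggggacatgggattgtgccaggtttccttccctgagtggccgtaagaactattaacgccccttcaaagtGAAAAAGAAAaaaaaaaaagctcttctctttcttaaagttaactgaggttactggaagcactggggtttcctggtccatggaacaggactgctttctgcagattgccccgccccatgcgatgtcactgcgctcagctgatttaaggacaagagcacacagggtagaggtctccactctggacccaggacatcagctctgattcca
Slfn4 (chr11:83174936-83175235, plus strand): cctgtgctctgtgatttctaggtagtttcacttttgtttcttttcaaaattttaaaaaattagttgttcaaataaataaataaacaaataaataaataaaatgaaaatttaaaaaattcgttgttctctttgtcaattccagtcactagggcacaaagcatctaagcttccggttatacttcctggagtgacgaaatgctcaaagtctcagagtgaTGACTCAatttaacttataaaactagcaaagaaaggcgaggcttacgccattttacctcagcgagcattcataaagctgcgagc

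The windows of Slfn8 and Slfn9 held 246 identical bases in a global alignment, 82.0% of the window. Other pairs of windows of different genes had 39.3% to 50%. The response element letters lay at bases -48 to -39 of Slfn8 and -45 to -36 of Slfn9, counted from the annotated start as 0, in both as TTTCGTTTTC, a match on the strand opposite to the gene. From the downstream Slfn8 start the same letters lie at -136 to -127. Beside these windows stand a 7.53-fold difference for Slfn8 and differences of 1.27-fold (1436472_at) and 1.60-fold (1458803_at) for Slfn9. In Slfn5 the letters read GAAAAAGAAA at -155 to -146, at the head of a run of adenines. The Slfn4 window held TGACTCA at -34 to -28 and had 33.7% G and C, against 49% to 53.0% in the other windows. The strongly differing Slfn1 and Slfn2 had none of the letters searched, and neither did Slfn3, which had no common shift.

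**Figure D2:**
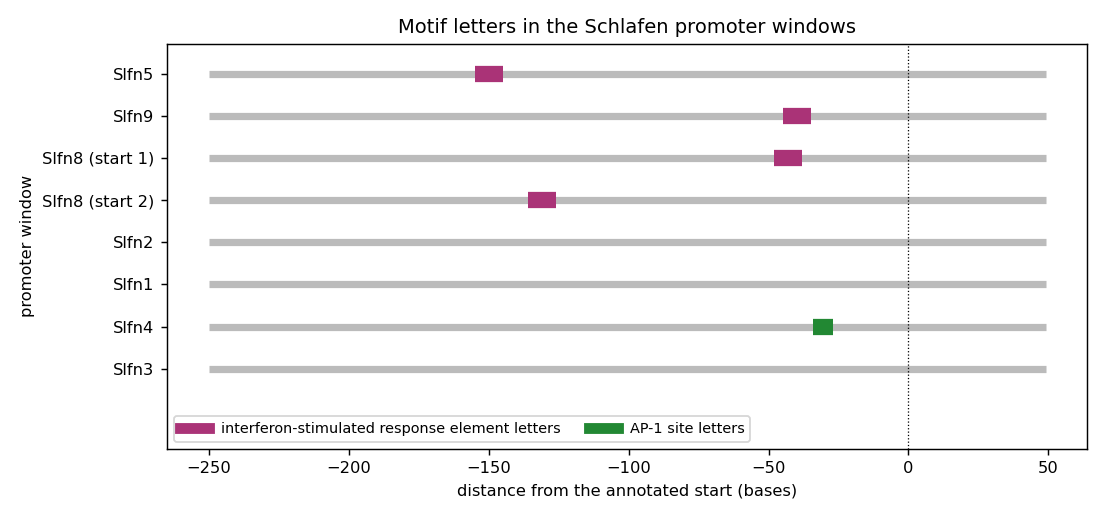
Promoter windows of the 7 Schlafen genes (rows, Slfn8 with both starts) drawn to scale by distance from the annotated start in bases (horizontal axis), with matches to the interferon-stimulated response element (purple) and AP-1 letters (green). The 4 purple marks lie in Slfn5, Slfn8 and Slfn9, and the green mark lies at -34 to -28 in Slfn4.

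The members lie together on chromosome 11, and genes beside them were not part of the choice. In the order of the RefSeq gene table, the measured genes run from Slfn5 over Slfn9, Slfn8, Slfn10-ps, Slfn2, Slfn1 and Slfn4 to Slfn3. Slfn10-ps, a family pseudogene between Slfn8 and Slfn2, read 6.33 ± 0.50 in wild type and 7.70 ± 0.51 in Bach2-deficient tumors (SD, n = 5 each) and did not overlap between them. It rose by 1.36 (SE 0.29, limma adjusted p = 0.00636 over 18193 genes). Its probes may read RNA of related members, which was not tested.

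Outside the cluster the measured changes were small, but of the 11 measured genes between or beside the members 7 lay in the dimmest 30% of genes. These were Fndc8, Unc45b, Unc45bos, Slfn5os, Rasl10b, Gas2l2 and 1700020L24Rik, in which a change can be missed. Of the 5 measured genes on each side, Ap2b1, an adaptor subunit of clathrin-coated pits, rose by 0.46 (SE 0.11, limma adjusted p = 0.0116) with overlapping groups. This call was lost after repeated quantile normalization (0.33, limma adjusted p = 0.0587), and the change was 0.49 with the Xist term. 1700020L24Rik fell by 0.32 (SE 0.10, limma adjusted p = 0.0361). Its readings lie in the dimmest 30% of genes, and the call was lost in 6 of the fits without 1 array (limma adjusted p from 0.0695 to 0.0896), those without wild-type replicate 1, 2 or 5 or Bach2-deficient replicate 2, 4 or 5. It was also lost after repeated quantile normalization (limma adjusted p = 0.135), and the change was -0.40 with the Xist term. The other 8 genes, from Fndc8 to Gas2l2, changed by -0.32 to 0.18 and did not pass. Among them was Slfn5os, a transcript antisense to Slfn5 that begins beside it (-0.02, limma adjusted p = 0.925), although it was dim at 4.23 ± 0.17 and 4.21 ± 0.14. Slfnl1, a family relative on another chromosome, was dim as well and changed by 0.04 (limma adjusted p = 0.785).

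**Figure D3:**
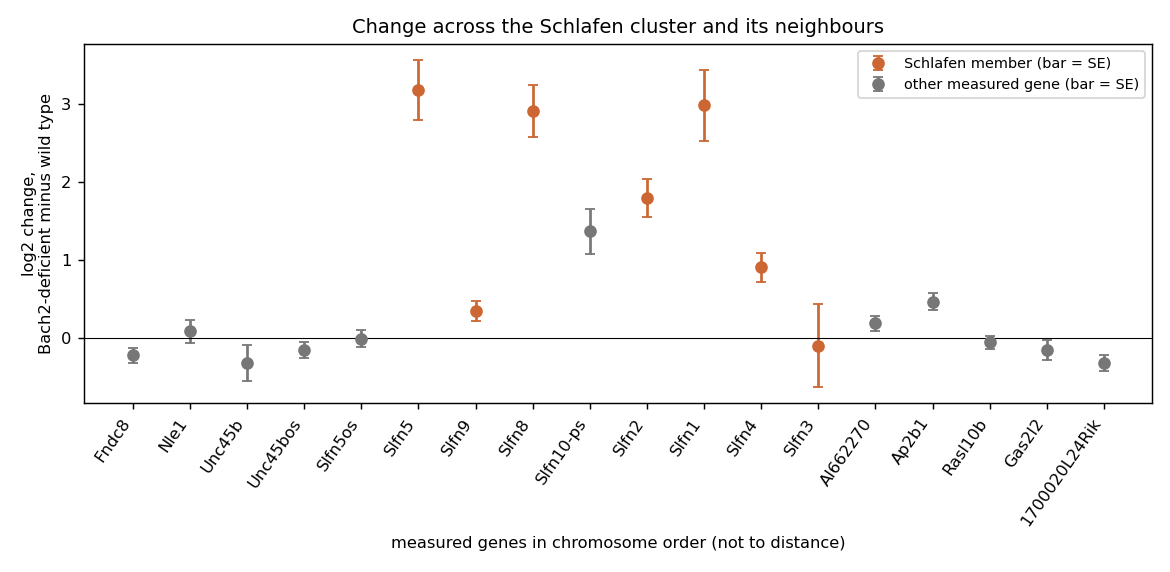
Log2 change, Bach2-deficient minus wild type (vertical axis, bar = SE of the fit over genes), for the Schlafen genes (orange, brightest probe set of each) and the measured genes between and beside them (grey), in chromosome order and not to distance. Slfn5, Slfn8, Slfn1 and Slfn2 stand at 1.80 or more and Slfn10-ps at 1.36, while Slfn3, Slfn9 and the flanking genes lie between -0.32 and 0.46.

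RNA of genes in the interferon pathway, which is known to induce several members, was mostly higher on the same arrays. RNA levels do not measure the activity of a pathway, and T cell, NK cell and macrophage markers also rose on these arrays. The part of interferon in the Schlafen differences was not tested. Of 15 measured signalling genes (receptors, kinases, STAT and IRF factors and feedback regulators), 13 rose and 0 fell, with a median change of 1.66. This list and those below were chosen with earlier results of these data known, so their counts are a description. Over all 18193 genes, 16.3% rose and 12.4% fell, with a median of -0.06. The transcription factor genes Irf1 (3.24, SE 0.25, limma adjusted p = 8.8e-05) and Irf7 (2.46, SE 0.26, limma adjusted p = 0.000283) had the smallest p. Ifngr2 (0.40) and Socs1 (0.37) did not pass. Irf9 and Stat2, parts of the complex that binds the response element, were among those that rose, by 1.66 and 2.64 (chosen after their values were seen).

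Antiviral effectors that interferons induce moved in the same direction. Of 18 measured, 17 rose and 0 fell, with a median of 1.84. Adar, an RNA editing enzyme, rose by 1.87 (SE 0.15, limma adjusted p = 0.000108), and Samhd1, which depletes nucleotides, by 2.37 (SE 0.23, limma adjusted p = 0.000207). Rsad2, already at 12.82 ± 0.55 in wild type, changed by 0.30 and did not pass.

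Genes of T cell quiescence, the state that Slfn2 supports, rose in part. Of 18 measured, 11 rose and 1 fell, with a median of 0.79. All 6 measured T cell markers rose on the same arrays, with a mean higher by 2.82, and their part in this count was not tested. Btg2 and Btg1, which keep resting T cells from growing, rose by 2.31 (SE 0.38, limma adjusted p = 0.00183) and 0.69 (SE 0.12, limma adjusted p = 0.00219). Tsc1, a brake on mTOR signalling, fell by 0.71 (SE 0.10, limma adjusted p = 0.00100), but not as the mean of its 3 probe sets (-0.38, limma adjusted p = 0.331). Foxo3 (0.00), Foxp1 (0.23), Klf4 (0.16), Ets1 (0.14), Cdkn1b (-0.12) and Tob1 (-0.38) did not pass. With the Xist term Btg2 changed by 2.41, Btg1 by 0.72 and Tsc1 by -0.84.

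Genes that process or cut tRNA, the substrate of several Schlafen proteins, had a median change of 0.07. Of 11 measured, 3 rose and 0 fell, beside 16.3% and 12.4% of all genes. Rnh1, the inhibitor of the tRNA-cutting enzyme angiogenin, rose by 1.02 (SE 0.12, limma adjusted p = 0.000370), and Clp1, an RNA kinase, by 1.19 (SE 0.28, limma adjusted p = 0.0103). Elac1, a tRNA end nuclease, rose by 1.24 (SE 0.37, limma adjusted p = 0.0299, named after its value was seen). Ang itself changed by 1.04 (SE 0.58) without passing, with a wild-type SD of 1.43. With the Xist term Rnh1 changed by 1.26 and Clp1 by 1.25.

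Markers of several cell types also differed between the groups. All 6 measured T cell markers rose, and their mean level ran from 6.66 to 8.28 in wild type and from 9.95 to 11.1 in Bach2-deficient tumors. All 4 NK cell markers rose (mean 5.58 to 7.08 against 8.63 to 10.2), as did 7 of 8 macrophage and monocyte markers (9.39 to 10.5 against 10.9 to 11.9). Of 7 melanocyte markers, 2 fell and 0 rose (12.7 to 12.8 against 12.2 to 12.9). Of 5 neutrophil markers, 2 rose (9.02 to 9.34 against 9.12 to 11.5), and of 4 B cell markers 0 changed by the test (5.62 to 6.54 against 4.70 to 7.91). Of 5 dendritic cell markers 3 rose (5.56 to 6.28 against 6.26 to 7.57), and of 4 endothelial markers 1 rose and 1 fell (4.77 to 5.15 against 4.75 to 5.75). Of 5 fibroblast markers 2 fell and 0 rose (7.94 to 8.94 against 6.85 to 8.88). Red cell markers went the other way from the members, and 3 of 4 fell (7.18 to 9.54 against 4.17 to 5.79), among them the anion exchanger gene Slc4a1, by 5.13 (SE 0.62, limma adjusted p = 0.000452, named after its value was seen). Log2 array values have no zero, so no marker is shown absent. In whole tumors, more cells of a type and more Schlafen RNA per cell cannot be told apart, and the part of these markers in the Schlafen differences was not tested.

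Within each genotype the arrays also varied, and some members varied together. Deviations of each array from its genotype mean were correlated over the 10 arrays, as a description with no p, since the points share arrays, normalization and cell makeup. Over the 21 pairs of the 7 genes (brightest probe set of each), Pearson's r ran from -0.34 to 0.89, with a median of 0.38. Slfn1 and Slfn2 had the highest value (0.89), followed by Slfn1 with Slfn8 (0.85) and Slfn2 with Slfn8 (0.82). With any 1 array left out these pairs kept values of at least 0.89, 0.70 and 0.71. Leaving out 1 array cannot show how far a pair rests on both replicate 1 arrays together. On replicate 1 of wild type and of Bach2-deficient tumors, Slfn1 deviated by -1.70 and -1.04, Slfn2 by -0.56 and -0.90, and Slfn8 by -1.03 and -0.92. Values without both of these arrays were not computed. Wild-type replicate 1 and Bach2-deficient replicate 1 were each the lowest of their group for 7 of the 11 probe sets, and they also had the lowest T cell, NK cell and macrophage marker means of their groups.

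Slfn5 gave different pictures by probe set. The brightest, 1458458_at, had r = 0.67 with Slfn2, which rested on Bach2-deficient replicate 1 and was -0.20 without it. The set 1456288_at had 0.87 with Slfn1 and 0.89 with Slfn2, and 1442640_at had 0.84 with Slfn4. Among themselves the 3 sets had r between -0.06 and 0.56, so they did not read the same differences between arrays of a group. With the brightest set of each other member, Slfn4 had r between 0.07 and 0.54 and Slfn3 between -0.34 and 0.38. Against the marker means, Slfn1 had r = 0.92 with macrophage and 0.90 with T cell markers, Slfn2 0.87 and 0.78, and Slfn8 0.86 and 0.70. Without wild-type replicate 1 the T cell values were 0.77, 0.69 and 0.42. With NK cell markers Slfn1, Slfn2 and Slfn8 had 0.71, 0.77 and 0.80, with endothelial markers 0.41, 0.69 and 0.70. With melanocyte markers these members had -0.44, -0.67 and -0.71. Slfn5 1458458_at had 0.71 with endothelial, -0.61 with melanocyte, 0.49 with macrophage and 0.30 with T cell markers. Slfn4 had 0.24 with macrophage and 0.28 with T cell markers. Its higher values were 0.63 with NK cell, 0.54 with fibroblast and 0.51 with neutrophil markers.

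**Figure D4:**
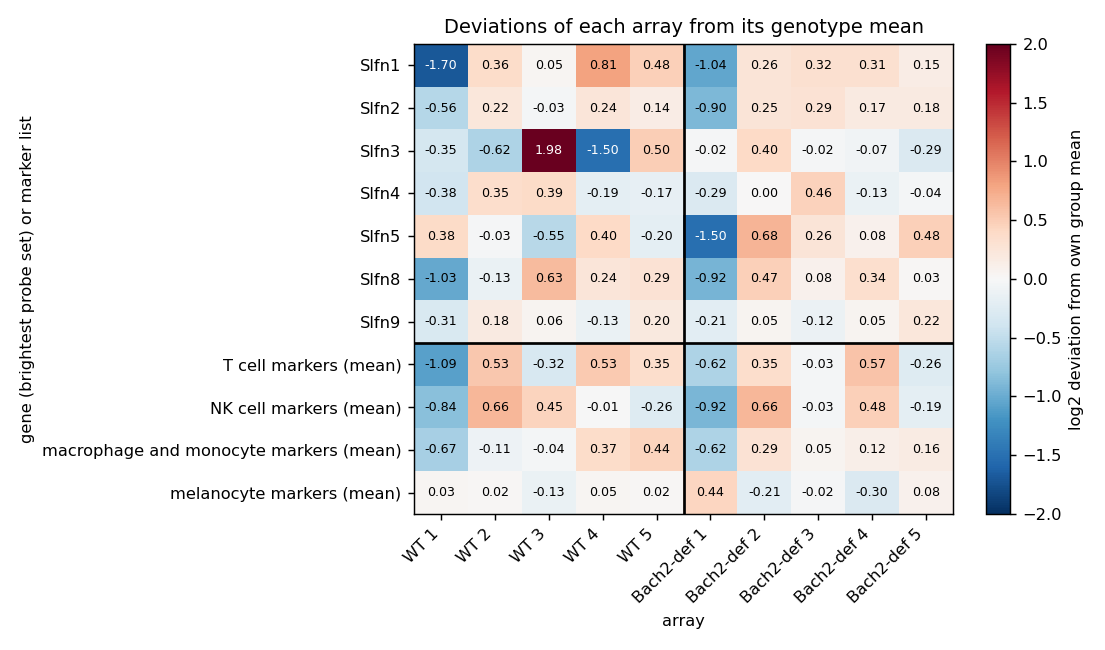
Log2 deviation of each array (columns, 5 wild type and 5 Bach2-deficient) from the mean of its genotype, for the brightest probe set of each Schlafen gene and for the means of 4 marker lists (rows), with blue below and red above the mean. Slfn1, Slfn2, Slfn8 and the T cell, NK cell and macrophage means are low on replicate 1 of both groups, while Slfn3 is high on wild-type replicate 3.

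The genes most like each member were sought among 12728 non-member genes outside the dimmest 30%, by the correlation of the same deviations. With so many genes and 10 arrays, high values arise readily, and they are given as a description. Slfn1 was closest to Ptprc, which encodes the leukocyte surface phosphatase CD45 (r = 0.99, at least 0.98 with any 1 array left out), and then to Prr5l, a partner of the mTOR complex (0.98). Ptprc read 9.65, 10.78, 10.62, 10.98 and 10.89 in wild type and 11.71, 12.38, 12.31, 12.47 and 12.29 in Bach2-deficient tumors, a rise of 1.65 (SE 0.25, limma adjusted p = 0.00131). Its order over the wild-type arrays was that of Slfn1. The Bach2-deficient order differed among the 4 highest arrays, which lie close together for both genes.

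**Figure D5:**
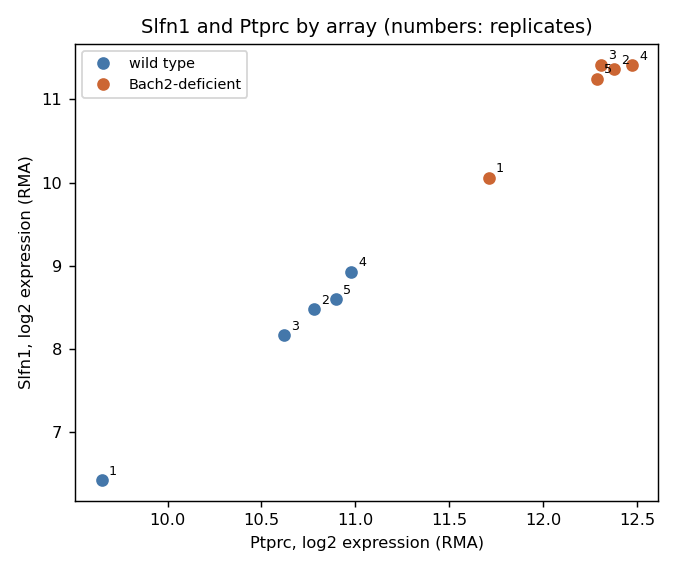
Log2 expression of Slfn1 (1418612_at, vertical axis) against Ptprc (horizontal axis) on each array, wild type in blue and Bach2-deficient in orange, with replicate numbers beside the points. Among wild-type arrays higher Ptprc came with higher Slfn1, and the points run from replicate 1 of wild type (9.65 and 6.42) to the cluster of Bach2-deficient replicates 2 to 5.

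Slfn2 was closest to Diaph1, a formin that builds actin filaments, and to the death-promoting gene Bcl2l11 (both r = 0.98), which rose by 1.39 and 1.64 (limma adjusted p = 0.00225 and 0.00131). Slfn8 was closest to Mideas and Cramp1l (both 0.97), and Slfn5 to Daxx, a histone chaperone of nuclear bodies (0.95), and Larp4b (0.94, or 0.73 without Bach2-deficient replicate 1). Daxx rose by 1.89 (SE 0.16, limma adjusted p = 0.00012). Slfn4 was closest to the amine oxidase gene Aoc3 (0.95) and to Nfkbiz, an inducible regulator of NF-κB targets (0.93), neither of which passed the genotype test. Slfn9 was closest to the monocyte chemokine gene Ccl2 (0.94) and Tpcn2 (0.93). Slfn3 was closest to Gm1123 (0.96) and Pitx1 (0.95), and for Gm1123 the value was 0.86 without wild-type replicate 3, the array on which Slfn3 stood highest.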

How the data were processed

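RNA of 10 B16 tumors (5 wild type, 5 Bach2-deficient, by sample title) was measured on 1-colour Affymetrix 3′ arrays after mechanical dissociation and Trizol extraction, per the labels' protocols. The deposited table holds log2 values of 45101 probe sets, made with RMA and Partek per the submitters' processing notes (versions not given in the sources used here). Values were used as deposited, and array medians lay between 5.80 and 5.88. The 64 control probe sets were left out of the tests. The number of arrays limits the precision, and no detection calls were used.

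limma 3.58.1 in R 4.3.3 (lmFit, eBayes, 2-sided, Benjamini-Hochberg) was fitted with genotype as the factor, once over 45037 probe sets for the members and once over 18193 genes (34945 single-symbol probe sets, the brightest per gene) for other genes. The code was tested on simulated data. The members and lists were chosen with earlier results of these data known. Named genes were all members, the 2 called genes of each list with the smallest p in each direction, called neighbours, and the 2 genes most like each member. Symbols came from the platform annotation (GRCm38.p6 gene table, 0 symbols changed), and sequences from RefSeq. Alternatives were median centring, repeated quantile normalization, trended robust moderation, array weights, a replicate block, an Xist term, a filter on the dimmest 30%, the mean of probe sets and leaving out each array.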

Additional observations from a re-analysis of the deposited data

Results flagged for a closer look

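A reading was singled out where, in a group of 5 arrays, the highest or lowest stood far from the next one compared with the range of the group. Of 48 groups examined 9 had such a reading. For a single group chance gives about 1 in 20, but these groups share the same arrays. The count therefore cannot be compared with that rate. Bach2-deficient replicate 1 was low for Slfn1 1418612_at (10.06), Slfn2 (11.38), Slfn5 1458458_at (7.14), Samhd1 (11.86) and Btg1 (12.93). The T cell, NK cell and macrophage marker means were also lowest of the group on that array, and their part was not tested. Without it, the same 7 Schlafen probe sets were called higher, beside 5768 of all 45037 probe sets. The median change of the 11 was then 2.02, beside -0.08 over all probe sets. Bach2-deficient replicate 3 was low for the dim Slfn1 1447614_at (2.14) and for Clp1 (8.43). Wild-type replicate 5 was high for Rnh1 (10.37), and wild-type replicate 1 was high for Ap2b1 (9.12).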

How the results depend on the processing

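The count of Schlafen probe sets called higher was 7 in the main analysis, beside 5360 of all 45037 probe sets. No count is read with the Xist term, where the genotype difference rests on 1 Bach2-deficient array. The count was 7 or 8 under the other alternatives run for it, which do not include the mean of probe sets. The dim filter left 10 of the 11 sets. Over all probe sets, 3729 (without Bach2-deficient replicate 2) to 6615 (array weights) were then called higher, both of 45037. The contrast chose the family, so nothing is read from these counts. All 7 were among those called under those other alternatives, and without any 1 array the count was 7 to 8. No Schlafen probe set was called lower in the main analysis or under those alternatives, beside 2132 to 5861 of all probe sets. Of 186 values of members under an alternative, 185 moved by less than 1 SD of the replicates, taken from the group with the larger SD. Trended moderation, the replicate block and the dim filter cannot alter a fitted change, so their values were the same by design. With the replicate block 8 Schlafen sets were called higher, beside 4958 of all 45037 probe sets. Same-numbered arrays correlated by only 0.0062 to 0.32, so the numbers are not taken as pairs. Counts of the gene lists are likewise not read with the Xist term. Quiescence genes that fell numbered 2 after repeated quantile normalization or with array weights, 0 as the mean of probe sets, and 1 to 2 without 1 array. Of tRNA genes 0 to 1 fell without 1 array, the 1 without Bach2-deficient replicate 1. Of genes beside the cluster, 1 rose and 0 fell after repeated quantile normalization, 2 fell with array weights, and 0 fell with the replicate block, with the dim filter (4 genes tested) and in some fits without 1 array (0 to 1). The cause of these changes was not tested. Calls with the Xist term aside, the named non-member genes kept their call status wherever tested, except Tsc1, Ap2b1 and 1700020L24Rik. Tsc1 lost its call as the mean of probe sets, and Ap2b1 after repeated quantile normalization. 1700020L24Rik lost its call after that normalization, with the replicate block and in some fits without 1 array. No called gene changed direction, while the uncalled Slfnl1 went from 0.04 to -0.02 without wild-type replicate 4.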
